A study of Mus musculus and Homo sapiens with 18 samples.

Results

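IL-33 and the IL-1 family are described here through 8 mouse genes chosen by name: the ligands Il33, Il1a, Il1b and Il18, the receptor antagonist Il1rn, and the receptor chains Il1rl1, Il1r1 and Il1rap. All 8 were found among the 55858 genes of the mouse tables. Of the 18 bladder carcinoma libraries of the series, 12 mouse libraries in 4 groups of 3 were used, and a human line was not analysed here. The first group is labelled as chemotherapy-treated (cisplatin and gemcitabine), and its library names and the series design call it relapsed; it is called the relapsed tumours below. It was set against control tumours of the same genetically engineered mouse model (GEMM), whose engineered alleles, strain, age and time of harvest are not given in the sources used here. The other pair was the mouse line CUUC-G carrying a guide RNA against Igfbp5 (sgIgfbp5) and the same line with a control guide (sgScr). The labels call the sgIgfbp5 samples knockdowns, the series design calls them knockouts, and neither says whether they are 1 clone. The labels enter bladder as the tissue and GEMM as the cell line for all 12 libraries. Nothing says that the 3 replicates of a group came from separate animals or cultures, so p-values measure the spread between these libraries, which may be technical.

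Cytokines of the IL-1 family carry danger and microbial signals across epithelial barriers such as the bladder lining. IL-33 and IL-1α are alarmins held in the nucleus or cytoplasm of structural cells and released on damage, while IL-1β and IL-18 are made as precursors that the inflammasome protease caspase-1 cuts. IL-33 binds ST2, the product of Il1rl1, and both forms of IL-1 bind the product of Il1r1; each complex needs the shared accessory chain encoded by Il1rap and signals through the adaptor MYD88. IL-1Ra, the product of Il1rn, occupies the IL-1 receptor without signalling. ST2 and the accessory chain also exist as soluble forms, without the membrane anchor and the signalling domain, and soluble ST2 acts as a decoy for IL-33.

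The soluble and membrane forms part at a single exon boundary in each receptor gene, and these ends are shown because the tumour table separates the transcripts that carry them. Each line gives the last 30 shared coding bases in lower case and the first coding bases of that form alone in capitals, on the plus strand of GRCm38 with GENCODE M21 models. For Il1rl1 the shared bases are chr1:40446646-40446675; the soluble transcript reads straight on through chr1:40446676-40446701, and the membrane transcript continues at the next exon, from chr1:40450075-40450104. For Il1rap the shared bases are chr16:26701207-26701236, with the soluble form continuing through chr16:26701237-26701265 and the membrane form from chr16:26710481-26710510.
Il1rl1-203, soluble: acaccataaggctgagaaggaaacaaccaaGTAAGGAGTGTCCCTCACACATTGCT
Il1rl1-201, membrane: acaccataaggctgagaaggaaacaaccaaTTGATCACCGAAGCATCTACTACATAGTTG
Il1rap-206, soluble: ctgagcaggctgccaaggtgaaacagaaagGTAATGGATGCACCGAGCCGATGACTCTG
Il1rap-201, membrane: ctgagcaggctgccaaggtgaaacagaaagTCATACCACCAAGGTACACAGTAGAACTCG
The soluble Il1rl1 transcript has 985 coding bases in common with the membrane form and 26 of its own, against 716 of its own in the membrane form. In Il1rap, 1051 coding bases are shared, with 29 further bases in the soluble form and 659 in the membrane form.

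Il33 has an upstream and a downstream start in RefSeq, and the 250 bases before each are shown because the tumour table gives their transcripts separately. Both windows are from RefSeq on GRCm38.p6, plus strand; capitals mark the letters TATAAA, the core of a TATA box. The downstream window is chr19:29945540-29945789 and the upstream window is chr19:29924863-29925112.
Il33, downstream start: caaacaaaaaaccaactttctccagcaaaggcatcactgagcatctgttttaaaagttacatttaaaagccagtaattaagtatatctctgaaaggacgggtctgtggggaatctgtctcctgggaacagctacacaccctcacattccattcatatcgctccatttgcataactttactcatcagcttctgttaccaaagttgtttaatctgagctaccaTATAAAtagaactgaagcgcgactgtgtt
Il33, upstream start: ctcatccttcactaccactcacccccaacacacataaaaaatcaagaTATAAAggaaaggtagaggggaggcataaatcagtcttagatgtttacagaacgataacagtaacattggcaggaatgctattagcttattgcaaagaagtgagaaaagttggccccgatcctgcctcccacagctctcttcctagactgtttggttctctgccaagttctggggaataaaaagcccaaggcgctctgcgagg
The match begins at position -29 in the downstream window, counted back from the start site, and lies farther from the start in the upstream one. On either strand, TATAAA was found in 12.4% of the 32851 RefSeq promoter windows of this length. Il1a held it at position -32 and, at position -12, the letters TGACTCA, a match to the AP-1 motif TGANTCA that 6.75% of windows hold. Il1b, which had no tumour counts, also held TATAAA, at position -31, Il18 held it on the other strand, and Il1rn held an AP-1 match. A match of letters is a description of the window, not evidence of a bound factor.

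The labels speak of harvested tumours and also enter GEMM as a cell line; the libraries are called tumours here, and whether cells were cultured before extraction is not given in the sources used here. Of the macrophage and monocyte markers, the leukocyte genes Ptprc and Itgam and the macrophage gene Adgre1 had 0 counts in the relapsed tumours, and 2, 2 and 3 counts in the control tumours. Others of the same list were counted and called higher at relapse: Cd14 had 1278 counts in relapsed and 172 in control tumours, Cd68 213 and 92, Csf1r 109 and 24, and Mrc1 43 and 6. Csf1r and Mrc1 passed the low-count filter through the relapsed group alone. Ddx3y, a gene of the Y chromosome, had 0 counts in all 3 relapsed libraries and 1531, 1478 and 1494 counts in the control libraries. Xist, the RNA that coats the inactive X chromosome, had 9954, 9903 and 9382 counts in the relapsed libraries and 1, 3 and 1 counts in the control libraries. The sex of the animals is not given in the sources used here, and this difference in sex-linked RNA cannot be told apart from relapse in these libraries. In CUUC-G, Ddx3y had 0 counts in every library. Xist had 31673, 19829 and 36259 counts in the sgIgfbp5 libraries and 9986, 7398 and 6321 in the sgScr libraries, and was called higher in sgIgfbp5 cells.

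The first comparison asked how relapsed tumours differ from control tumours. Il33 and Il1rl1 were low and Il1a was almost uncounted in the control libraries, and all 3 were far higher in the relapsed ones. Il1r1 and Il1rap were present in both groups and higher at relapse. Il18 was detected in both groups without a called difference, and Il1b had no count in any tumour library. Of the 7 genes that passed the low-count filter, 6 were called higher and 0 lower at an edgeR adjusted p under 0.05. Among all 14373 genes tested, 73.5% were called in either direction, 36.6% higher and 36.9% lower. Il1a and Il1rn passed the filter, about 0.494 CPM in 3 libraries, through the relapsed group alone. In bulk RNA, fewer cells of a type and less RNA per cell cannot be told apart. Total estimated counts, in units of 1e6, were between 18.965 and 21.757 per tumour library and between 19.211 and 20.73 per CUUC-G library.

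Il33 (ENSMUSG00000024810.17; chr19:29925114-29960718, plus strand) had 298, 283 and 288 CPM (counts scaled to library size) in the relapsed libraries, against 2.83, 3.10 and 3.27 CPM in the control libraries. All 3 relapsed values lay together and far above the controls. The log2 fold change was 6.56 ± 0.06 (SE; adjusted p = 1.99e-32 by edgeR), a 94.6-fold difference, resting on 17540 estimated counts in the relapsed group and 186 in the control group. On the length-corrected scale of TPM (transcript abundance scaled to a fixed total), Il33 averaged 183 ± 5.59 in relapsed and 2.09 ± 0.17 in control tumours (SD, n = 3 each).

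Il1a (ENSMUSG00000027399.2; chr2:129299610-129309972, minus strand), the other alarmin, had 9.03, 10.3 and 10.8 CPM in the relapsed libraries, against 0, 0.158 and 0 CPM in the control libraries. Only 1 control library held any Il1a count. Over the groups these were 607 and 3 counts, a ratio of 203 with an exact 95% binomial interval of 69.3 to 989 that covers counting error only. The fitted log2 fold change was 7.50 ± 0.39 (SE; adjusted p = 8.94e-16 by edgeR); without control replicate 2, which held the 3 counts, it was 10.68, and without control replicate 1 it was 6.90. The printed SE is smaller than the exact interval of the ratio allows for. Gm14023, a processed transcript, overlaps Il1a on the opposite strand.

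Il1b (ENSMUSG00000027398.14; chr2:129364570-129371139, minus strand), the classical secreted IL-1, had 0 counts in all 6 tumour libraries. A count of 0 allows up to 0.0492 CPM over the relapsed group and 0.0496 CPM over the control group. Il18 (ENSMUSG00000039217.14; chr9:50554827-50581840, plus strand), the other caspase-1 substrate, had 3.69, 3.44 and 2.79 CPM in relapsed tumours, against 4.79, 4.84 and 3.02 CPM in control tumours. The groups overlapped, since control replicate 3 lay below the 2 higher relapsed libraries. Its log2 fold change was -0.35 ± 0.22 (SE; adjusted p = 0.155 by edgeR), and without control replicate 3 it was -0.55 with an adjusted p of 0.0338. The protein-coding genes Bco2 and Tex12 overlap Il18 on the opposite strand.

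Il1rn (ENSMUSG00000026981.16; chr2:24336853-24351494, plus strand), the antagonist, was near the limit of detection, with 1.30, 1.10 and 1.62 CPM in relapsed and 0.866, 0.421 and 0.704 CPM in control libraries. The groups did not overlap, but they rest on 81 counts at relapse and 41 in controls. The log2 fold change was 0.99 ± 0.41 (SE; adjusted p = 0.0321 by edgeR). DESeq2 gave an adjusted p of 0.0995 and limma on log2(TPM + 1) one of 0.29, and the call was also lost without relapsed replicate 1 or 3 and without control replicate 2 or 3.

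Il1rl1 (ENSMUSG00000026069.16; chr1:40429570-40465415, plus strand), which encodes the IL-33 receptor ST2, had 120, 117 and 110 CPM in the relapsed libraries, against 0.866, 1.10 and 0.805 CPM in the control libraries. Its log2 fold change was 6.96 ± 0.10 (SE; adjusted p = 1.38e-28 by edgeR), with 6990 estimated counts in relapsed and 56 in control tumours. The ligand Il33 and its receptor gene were thus both high in the same 3 libraries and both low in the other 3. Il1r1 (ENSMUSG00000026072.13; chr1:40225080-40317257, plus strand), the signalling receptor for IL-1, had 72.2, 75.4 and 68.9 CPM in relapsed and 28.4, 26.8 and 23.8 CPM in control tumours. It rose by 1.45 ± 0.07 on the log2 scale (SE; adjusted p = 6.89e-17 by edgeR). Il1rap (ENSMUSG00000022514.15; chr16:26581704-26730117, plus strand), the shared accessory chain, had 38.5, 37.5 and 38.4 CPM in relapsed tumours, against 26.3, 23.3 and 25.3 CPM in control tumours. This smaller increase, 0.61 ± 0.07 (SE; adjusted p = 2.14e-08 by edgeR), also left no overlap between the groups. Gm38070 overlaps Il1r1 on the same strand and the antisense gene Gm20319 overlaps Il1rap.

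**Figure D1:**
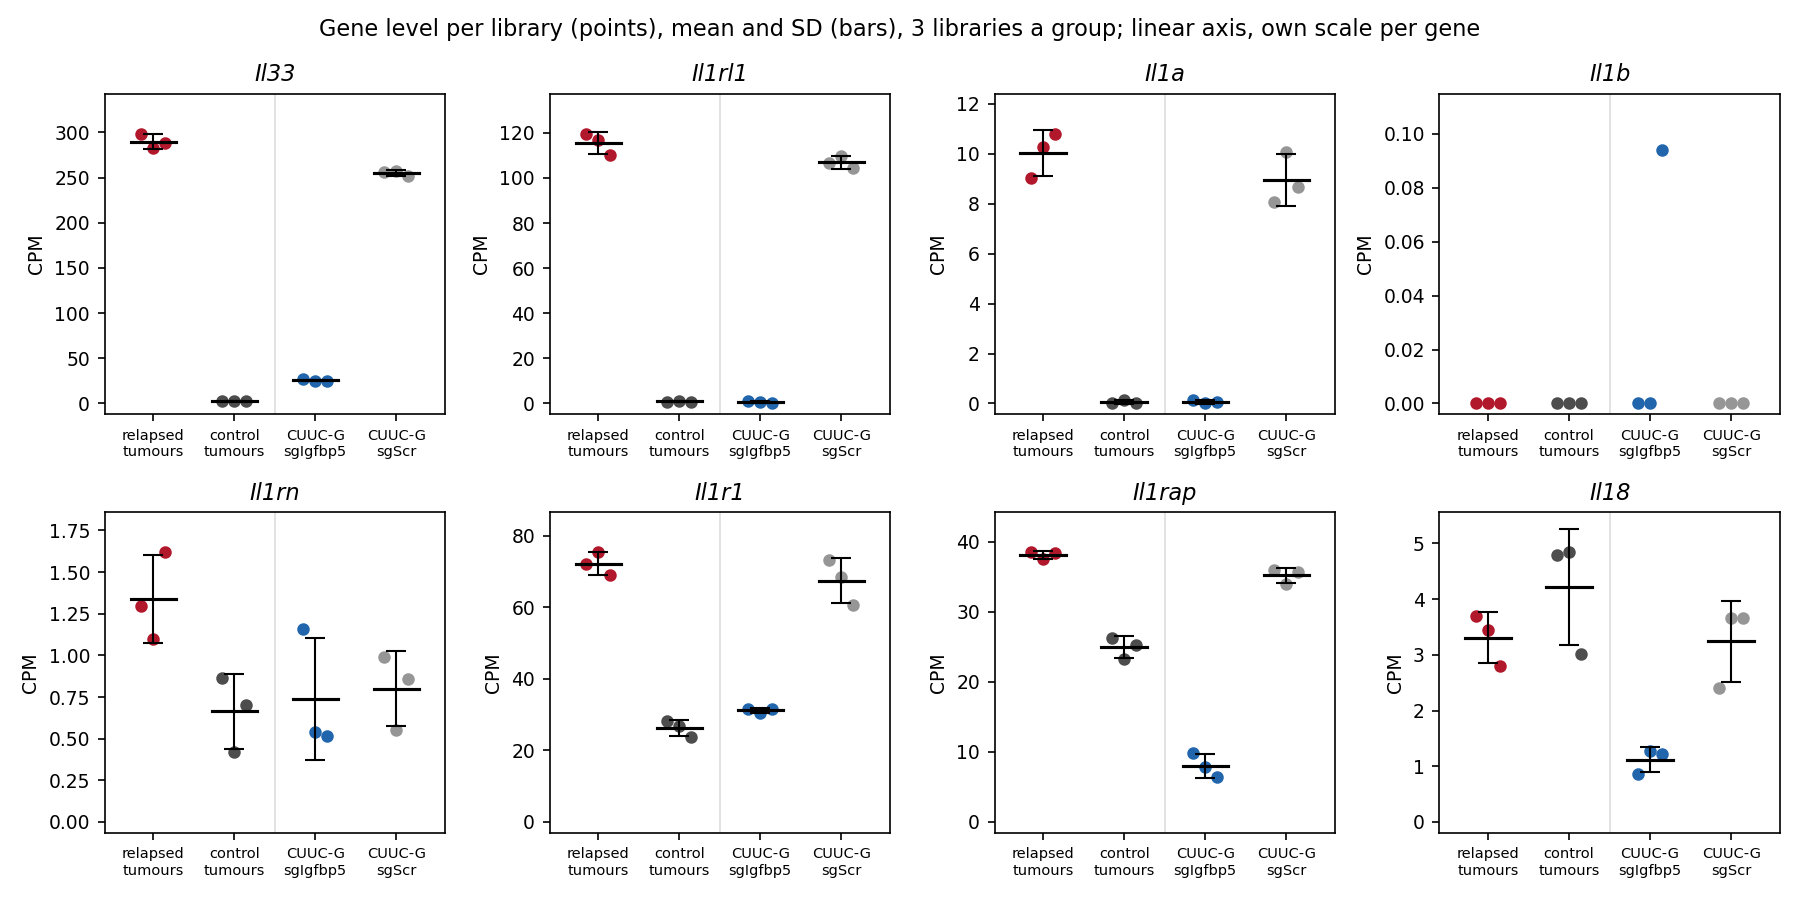
Level of each of the 8 genes in CPM on a linear axis (own scale per panel) in relapsed tumours, control tumours, CUUC-G sgIgfbp5 and CUUC-G sgScr; points are libraries and black bars the mean and SD of 3 libraries, omitted for Il1b. Il33, Il1rl1 and Il1a are high in the relapsed and sgScr libraries and low in the control and sgIgfbp5 libraries, while Il1b has counts in 1 library only.

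The second comparison asked what targeting Igfbp5 changes in CUUC-G. Igfbp5, which encodes a secreted binding protein of insulin-like growth factors, had 12, 8 and 10 counts in the sgIgfbp5 libraries, against 20, 51 and 43 counts in the sgScr libraries. The groups did not overlap, and the log2 fold change was -1.999 ± 0.42 (SE; adjusted p = 0.00125 by edgeR), from low counts in every library. Of the 7 IL-1 family genes that passed the filter, 6 were called lower in sgIgfbp5 cells and 0 higher. Over all 14553 genes tested, 70.8% were called in either direction, 36.5% higher and 34.3% lower. Il1a and Il1rl1 entered this test through their sgScr libraries alone.

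Il33 had 26.7, 25.2 and 25.1 CPM in the sgIgfbp5 libraries, against 257, 258 and 252 CPM in the sgScr libraries. The ligand was about 9.94-fold lower in sgIgfbp5 cells, a log2 fold change of -3.31 ± 0.07 (SE; adjusted p = 4.06e-11 by edgeR), and remained well detected with 1575 counts. Il1a had 0.152, 0 and 0.047 CPM in sgIgfbp5 and 8.08, 10.1 and 8.66 CPM in sgScr libraries, or 4 counts against 517. Its log2 fold change was -6.97 ± 0.40 (SE; adjusted p = 3.96e-08 by edgeR), and -8.22 without sgIgfbp5 replicate 1. The ratio of sgScr over sgIgfbp5 was 138, with an exact 95% binomial interval of 53.4 to 507 that covers counting error only. Here too the printed SE is smaller than this interval allows for. The alarmin genes were thus lower together in sgIgfbp5 cells, Il33 to a measurable level and Il1a to a few counts.

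Il18 had 0.858, 1.28 and 1.22 CPM in sgIgfbp5 libraries, against 2.40, 3.66 and 3.66 CPM in sgScr libraries. It was called lower here, with a log2 fold change of -1.53 ± 0.29 (SE; adjusted p = 0.000552 by edgeR), from 69 counts in sgIgfbp5 and 187 in sgScr cells. Il1b had 2 counts in sgIgfbp5 replicate 3 and 0 in the other 5 libraries, and 0 counts over the sgScr group allow up to 0.05 CPM. For the antagonist Il1rn, the levels were 1.16, 0.541 and 0.517 CPM in sgIgfbp5 and 0.990, 0.552 and 0.861 CPM in sgScr libraries. These overlapped, with a log2 fold change of -0.12 ± 0.44 (SE; adjusted p = 0.822 by edgeR), and no direction can be given at 45 and 46 counts.

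The receptor gene Il1rl1 had 1.06, 0.590 and 0.282 CPM in sgIgfbp5 libraries, against 107, 110 and 104 CPM in sgScr libraries. It was nearly lost from sgIgfbp5 cells, with 39 counts against 6178, a log2 fold change of -7.38 ± 0.20 (SE; adjusted p = 4.82e-10 by edgeR). Il1r1 had 31.5, 30.5 and 31.6 CPM in sgIgfbp5 cells and 73.1, 68.4 and 60.7 CPM in sgScr cells, a fall of 1.11 ± 0.09 on the log2 scale (SE; adjusted p = 5.41e-07 by edgeR). Il1rap had 9.80, 7.82 and 6.44 CPM in sgIgfbp5 cells, against 35.9, 34.0 and 35.6 CPM in sgScr cells. It fell by 2.13 ± 0.14 on the log2 scale (SE; adjusted p = 9.58e-08 by edgeR). For all 3 receptor genes, every sgIgfbp5 library lay below every sgScr library, and how many of all genes do so was not counted.

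**Figure D2:**
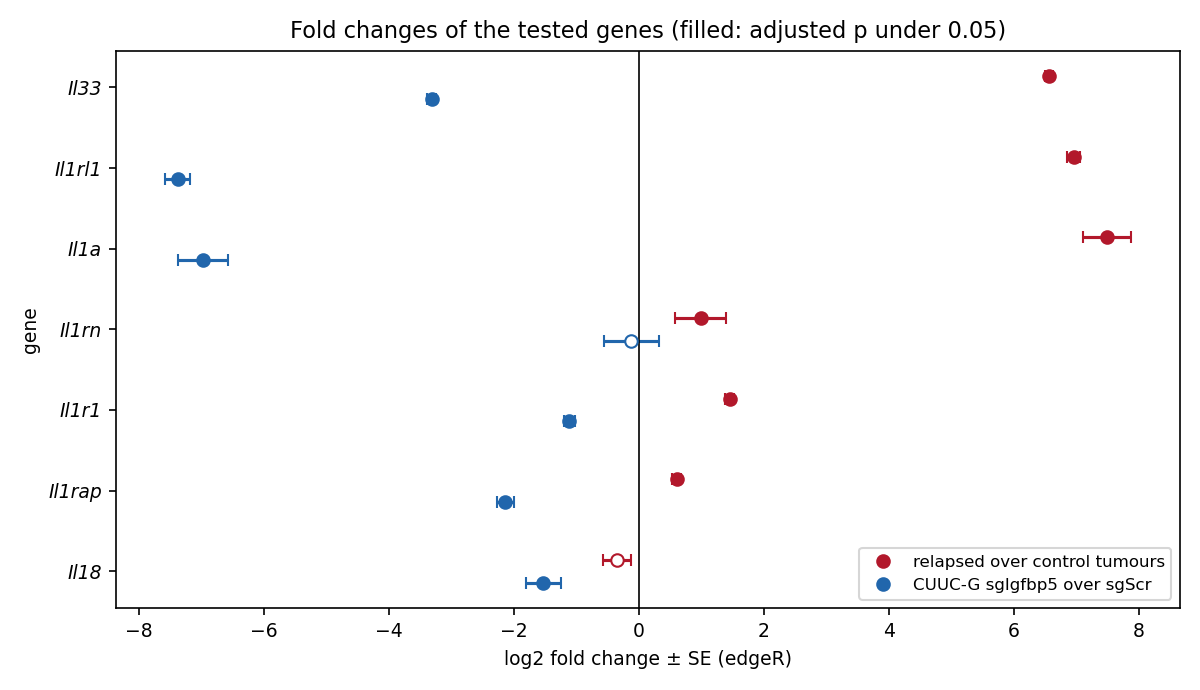
Log2 fold change with its SE for the 7 genes tested, relapsed over control tumours in red and CUUC-G sgIgfbp5 over sgScr in blue; filled points had an edgeR adjusted p under 0.05. Il33, Il1rl1, Il1a, Il1r1 and Il1rap are right of 0 at relapse and left of 0 in sgIgfbp5 cells, and the open points are Il18 in the tumours and Il1rn in CUUC-G.

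The ranks of the genes within a group were set on the TPM scale. In relapsed tumours the order was Il33 at 183, Il1rl1 at 58.2 ± 3.44, Il1r1 at 22.6 ± 0.60, Il1rap at 13.8 ± 0.25, Il18 at 8.80 ± 1.85, Il1a at 8.45 ± 0.74 and Il1rn at 1.41 ± 0.63 TPM (SD, n = 3). Il18 and Il1a overlapped in it and the other neighbours did not. In control tumours Il18, at 11.98 ± 3.37 TPM, led Il1r1 at 9.91 ± 1.86 and Il1rap at 9.60 ± 0.49 TPM, and these 3 overlapped. Il33 at 2.09 TPM, Il1rn at 0.854 ± 0.622 TPM and Il1rl1 at 0.483 ± 0.112 TPM came below them, the last 2 overlapping. In sgIgfbp5 cells Il33 led at 16.5 ± 0.47 TPM, above Il1r1 at 10.3 ± 0.97 TPM, with Il18 at 3.08 ± 1.01 and Il1rap at 2.94 ± 0.53 TPM overlapping next. In sgScr cells the order was that of the relapsed tumours: Il33 at 158 ± 7.96, Il1rl1 at 52.9 ± 2.67, Il1r1 at 21.6 ± 3.58, Il1rap at 12.5 ± 1.01, Il18 at 7.72 ± 1.43, Il1a at 7.40 ± 0.79 and Il1rn at 0.550 ± 0.131 TPM (SD, n = 3). The tumour and CUUC-G tables were normalized separately, so levels across them are set side by side without a test.

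The transcripts of the tumour table resolved which forms made up these gene levels. Of 34 transcripts of the 8 genes, 12 passed the filter and 9 were called higher at relapse, in a table in which 32.5% of 32281 transcripts were called, 16.2% higher and 16.3% lower. The 9 were both tested transcripts of Il33, Il1rl1, Il1r1 and Il1rap and the single Il1a transcript. Il33-201, from the downstream start at base 29945790, had 171, 162 and 162 TPM in relapsed libraries, against 1.69, 2.10 and 0 TPM in control libraries. It made up 90.5%, 91.1% and 89.1% of Il33 TPM in the relapsed libraries and rose by 7.13 ± 0.68 on the log2 scale (SE; adjusted p = 0.000632 by edgeR). Il33-202, from the upstream start at base 29925114 and with the same coding length of 798 bases, had 15.9, 15.1 and 16.6 TPM at relapse, against 0.215, 0 and 2.26 TPM in controls. Its log2 fold change was 4.40 ± 1.30 (SE; adjusted p = 0.0481 by edgeR), and the call was lost when any relapsed replicate or control replicate 1 was left out. Without control replicate 3 it was 7.18 (adjusted p = 0.00581 by edgeR), and with the replicate number as a block 5.58 (adjusted p = 0.0771 by edgeR). Control replicate 3 had all of its 65 Il33 counts assigned to the upstream start and control replicate 2 all of its 59 to the downstream one. Start use in the controls therefore cannot be read from these counts.

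Most Il1rl1 RNA in the relapsed tumours had the soluble coding end. The soluble transcript Il1rl1-203 had 46.6, 48.1 and 44.5 TPM in relapsed libraries, against 0.446, 0.480 and 0.223 TPM in control libraries. It rose by 7.03 ± 0.22 on the log2 scale (SE; adjusted p = 8.1e-06 by edgeR). The 2 transcripts with the membrane coding sequence summed to 11.4, 10.3 and 9.91 TPM at relapse, against 0.053, 0.107 and 0.142 TPM in controls. Their sum, formed after the data were seen, rose by 6.78 ± 0.30 (SE; adjusted p = 2.74e-05 by edgeR). Soluble ends thus made 79.2%, 78.5% and 81.8% of Il1rl1 TPM in the relapsed libraries, against 89.4%, 81.8% and 61.1% in the control libraries. These shares overlapped, and the control values come from only 56 counts. The sum was needed because relapsed replicate 1 had 818.9 counts on Il1rl1-202 and 0 on Il1rl1-201, while the other 2 relapsed replicates had 506.3 and 504.8 on Il1rl1-201. A further transcript with the soluble coding sequence, which starts farthest upstream at base 40429570, had 0 counts in all 6 libraries.

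Il1rap had the opposite makeup. The membrane transcript Il1rap-201 had 11.9, 11.6 and 11.6 TPM in relapsed libraries, against 8.99, 7.95 and 9.12 TPM in control libraries, and rose by 0.56 ± 0.07 on the log2 scale (SE; adjusted p = 0.00215 by edgeR). The soluble Il1rap-206 had 2.03, 1.86 and 2.28 TPM at relapse, against 0.922, 1.11 and 0.559 TPM in controls. Its log2 fold change was 1.39 ± 0.38 (SE; adjusted p = 0.0362 by edgeR), and its adjusted p lay above the threshold whichever of the 6 libraries was left out, between 0.0532 and 0.109. It took 14.6%, 13.7% and 16.4% of Il1rap TPM in relapsed and 9.2%, 12.3% and 5.76% in control libraries; whether the share itself changed was not tested. Of the 2 tested Il1r1 transcripts, Il1r1-202, from the downstream start at base 40266586, held 88.4% to 95.3% of Il1r1 TPM at relapse and 73.1% to 92.1% in controls. It rose by 1.45 ± 0.08 on the log2 scale (SE; adjusted p = 6.83e-05 by edgeR). Il1r1-201 rose by 1.69 ± 0.40 (SE; adjusted p = 0.0209 by edgeR), a call lost without relapsed replicate 2 or 3 and without control replicate 2 or 3. The tested Il1rn transcript and the 2 tested Il18 transcripts had adjusted p-values of 0.825, 0.513 and 0.591. The CUUC-G table is by gene, so forms could not be separated there.

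**Figure D3:**
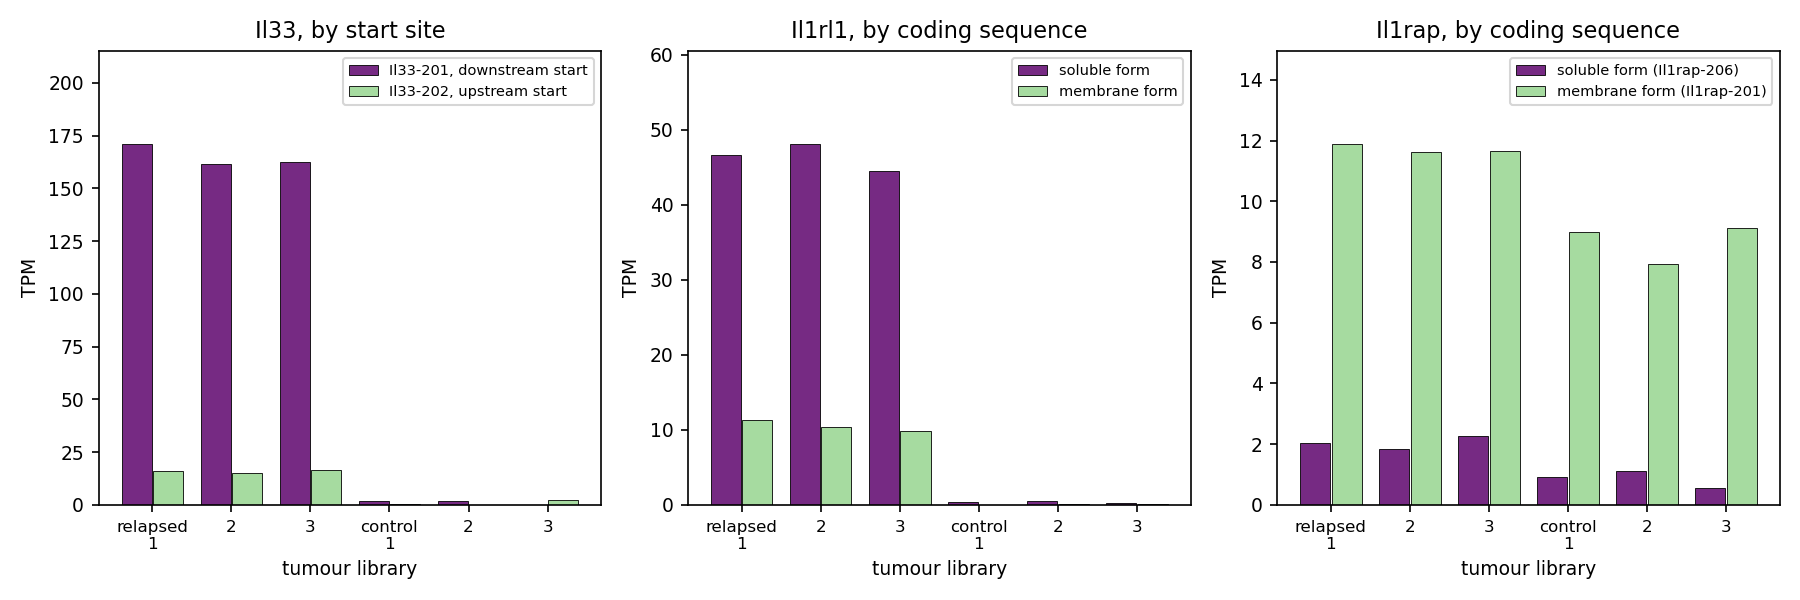
TPM in each tumour library, relapsed libraries left and control libraries right, for the 2 main Il33 transcripts by start site and for the soluble and membrane forms of Il1rl1 and Il1rap; bars start at 0 and stand for single libraries. Soluble Il1rl1 at 44.5 to 48.1 TPM is above the membrane form at 9.91 to 11.4 TPM in the relapsed libraries, while membrane Il1rap is above its soluble form in all 6.

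The other genes of the pathway were followed in 5 lists of 64 genes, of which 46 were tested and 24 called higher and 11 lower at relapse. These are 76.1% of the genes tested, near the 73.5% called over all genes. Of the 46, 7 passed the filter through the relapsed group alone and 1 through the control group alone. Passing in this way favours genes that are higher in that group, without making a called difference certain. The IL-36 and IL-38 cytokines were practically absent. Of 5 other ligand genes, Il36a, Il36b, Il36rn and Il1f10 had 0 counts in all 12 libraries. Il36g had 7 counts over the relapsed and 2 over the control tumours, and 11 over the sgIgfbp5 and 7 over the sgScr libraries.

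Among 8 other receptor and decoy genes, 4 passed the filter in the tumours, with 1 higher, 1 lower and 2 not called. Il18rap, the accessory chain of the IL-18 receptor, had 28.8 ± 2.66 CPM in relapsed and 3.16 ± 0.61 CPM in control tumours (SD, n = 3 each), a log2 fold change of 3.18 ± 0.13 (SE; adjusted p = 1.35e-18 by edgeR). Its partner Il18r1, which binds IL-18, had only 11 counts in relapsed and 2 in control tumours. Sigirr, a receptor of this family that restrains signalling, was lower, at 0.281 ± 0.027 CPM in relapsed and 1.36 ± 0.098 CPM in control tumours, with a log2 fold change of -2.25 ± 0.46 (SE; adjusted p = 8.06e-05 by edgeR). It passed the filter through the control group alone, with 17 counts in relapsed and 83 in control tumours. Il1rl2, the IL-36 receptor, had 31.3 CPM at relapse and 28.6 CPM in controls (edgeR adjusted p = 0.105), and Il18bp, the IL-18 decoy, 1.60 and 1.35 CPM (adjusted p = 0.531). The decoy receptor gene Il1r2 did not pass the filter, with 28 counts in relapsed tumours and 1 in control tumours, a ratio of 28.1 with an exact 95% interval of 4.65 to 1150. In CUUC-G, 3 of the 8 were tested and 2 were lower in sgIgfbp5 cells, or 66.7% called beside 70.8% over all genes. Il18rap had 4.94 ± 1.18 CPM in sgIgfbp5 and 27.9 ± 0.56 CPM in sgScr cells, a log2 fold change of -2.49 ± 0.15 (SE; adjusted p = 7.05e-08 by edgeR). Il1rl2 fell by 0.77 ± 0.14 (SE; adjusted p = 0.000452 by edgeR), with 17.8 CPM in sgIgfbp5 and 30.4 CPM in sgScr cells.

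The adaptors and kinases below the receptors moved in both directions. All 13 were tested in the tumours, where 2 were higher, 6 lower and 5 not called. The called share, 61.5%, was below the 73.5% of all genes, and the list had a median log2 fold change of -0.135 against 0.002 over all genes tested. The largest of these changes were in the binding partners of the kinase TAK1: Tab2 had 138 ± 6.56 CPM in relapsed and 333 ± 12.03 CPM in control tumours, a log2 fold change of -1.27 ± 0.04 (SE; adjusted p = 5.68e-21 by edgeR), and Tab1 fell by 0.93 ± 0.10. Irak2, a kinase of the receptor complex, was higher by 0.56 ± 0.08 and the ubiquitin ligase gene Peli1 lower by 0.32 ± 0.08 on the log2 scale. The adaptor Myd88 had 39.8 CPM at relapse and 43.9 CPM in controls (edgeR adjusted p = 0.0532). In CUUC-G, 5 of the 13 were higher in sgIgfbp5 cells, 5 were lower and 3 were not called, or 76.9% called beside 70.8% over all genes, with a median of 0.148 against 0.059 over all genes. Tab1 rose by 1.03 ± 0.10, Tab2 by 0.79 ± 0.08 and Traf6, the ubiquitin ligase that joins the complex, by 0.89 ± 0.10 in sgIgfbp5 cells, while Tab3 fell by 0.94 ± 0.14 (SE; adjusted p = 0.00011 by edgeR).

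Of 18 inflammasome and protease genes, 10 passed the filter in the tumours, with 3 higher, 4 lower and 3 not called, a called share of 70.0% beside 73.5% over all genes. Casp1, the protease that cuts the IL-1β and IL-18 precursors, had 13.8 ± 0.80 CPM in relapsed and 7.48 ± 0.36 CPM in control tumours, a log2 fold change of 0.88 ± 0.12 (SE; adjusted p = 2.11e-07 by edgeR). Casp4 (mouse caspase-11), which senses cytosolic lipopolysaccharide, fell by 1.11 ± 0.09 and the pore-forming Gsdmd by 0.55 ± 0.10 on the log2 scale. The inflammasome adaptor Pycard had 19 counts in relapsed and 4 in control tumours and was not tested. In CUUC-G, 1 of 11 tested genes was higher in sgIgfbp5 cells, 6 were lower and 4 were not called, or 63.6% called beside 70.8% over all genes. Casp1 had 1.59 ± 0.46 CPM in sgIgfbp5 and 11.7 ± 1.63 CPM in sgScr cells, a fall of 2.88 ± 0.21 on the log2 scale (SE; adjusted p = 3.14e-07 by edgeR). Capn2, a calpain protease subunit, fell by 0.82 ± 0.07 on the log2 scale. The DNA sensor Aim2 had 4 counts in sgIgfbp5 and 64 in sgScr libraries and passed the filter through the sgScr group alone, with a fitted log2 fold change of -3.97 ± 0.64 (SE).

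The 20 IL-1 responsive genes are chemokines, cytokines, matrix proteases and NF-κB feedback genes that IL-1 induces, as do other stimuli of NF-κB. In the tumours 19 were tested, of which 18 were higher at relapse, 0 were lower and 1 was not called. Cxcl2, Cxcl5, Ccl20, Csf3, Nos2 and Mmp3 passed the filter through the relapsed group alone. Of the 13 that passed it in both groups, 12 were higher and 0 lower. Over all genes tested, however they passed, 36.6% were called higher. The share among genes passing in both groups was not computed. Over the 19, those 6 included, the median log2 fold change was 4.02, against 0.002 over all genes tested. The median without those 6 was not computed. The 1 gene with no counts in a group was also set at its bound, from a floor of 3 counts over the group. It lay above the median either way, so the median, again 4.02, could not move. The log2 fold change was 12.41 ± 0.08 for the neutrophil chemokine Cxcl5, 6.56 ± 0.05 for the monocyte chemokine Ccl2, 5.55 ± 0.08 for Cxcl1 and 3.30 ± 0.03 for the prostaglandin synthase Ptgs2 (SE). In CUUC-G all 20 were tested, and 18 were lower in sgIgfbp5 cells, 1 was higher and 1 was not called. Here 7 passed the filter through the sgScr group alone, and of the 13 that passed it in both groups 12 were lower and 1 higher. Over all genes tested, again however they passed, 34.3% were called lower. The median over the 20 was -4.24 against 0.059 over all genes. It was also -4.24 with 2 genes that had no counts in a group at their bounds, which lay below it either way. Cxcl5 had 1.83 ± 0.30 CPM in sgIgfbp5 and 758 ± 31.9 CPM in sgScr cells, and Mmp3, a matrix protease, 1.59 ± 0.24 and 89.9 ± 7.23 CPM. The log2 fold change was -8.69 ± 0.12 for Cxcl5, -5.82 ± 0.13 for Mmp3, -5.64 ± 0.12 for Ccl2 and -4.71 ± 0.11 for Cxcl1. Over all 5 lists, 7 of 47 tested genes were higher and 31 lower in sgIgfbp5 cells, or 80.9% called beside 70.8% over all genes, and 11 were higher when libraries were scaled by their size only. Of the 47, 8 passed the filter through the sgScr group alone and 1 through the sgIgfbp5 group alone.

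**Figure D4:**
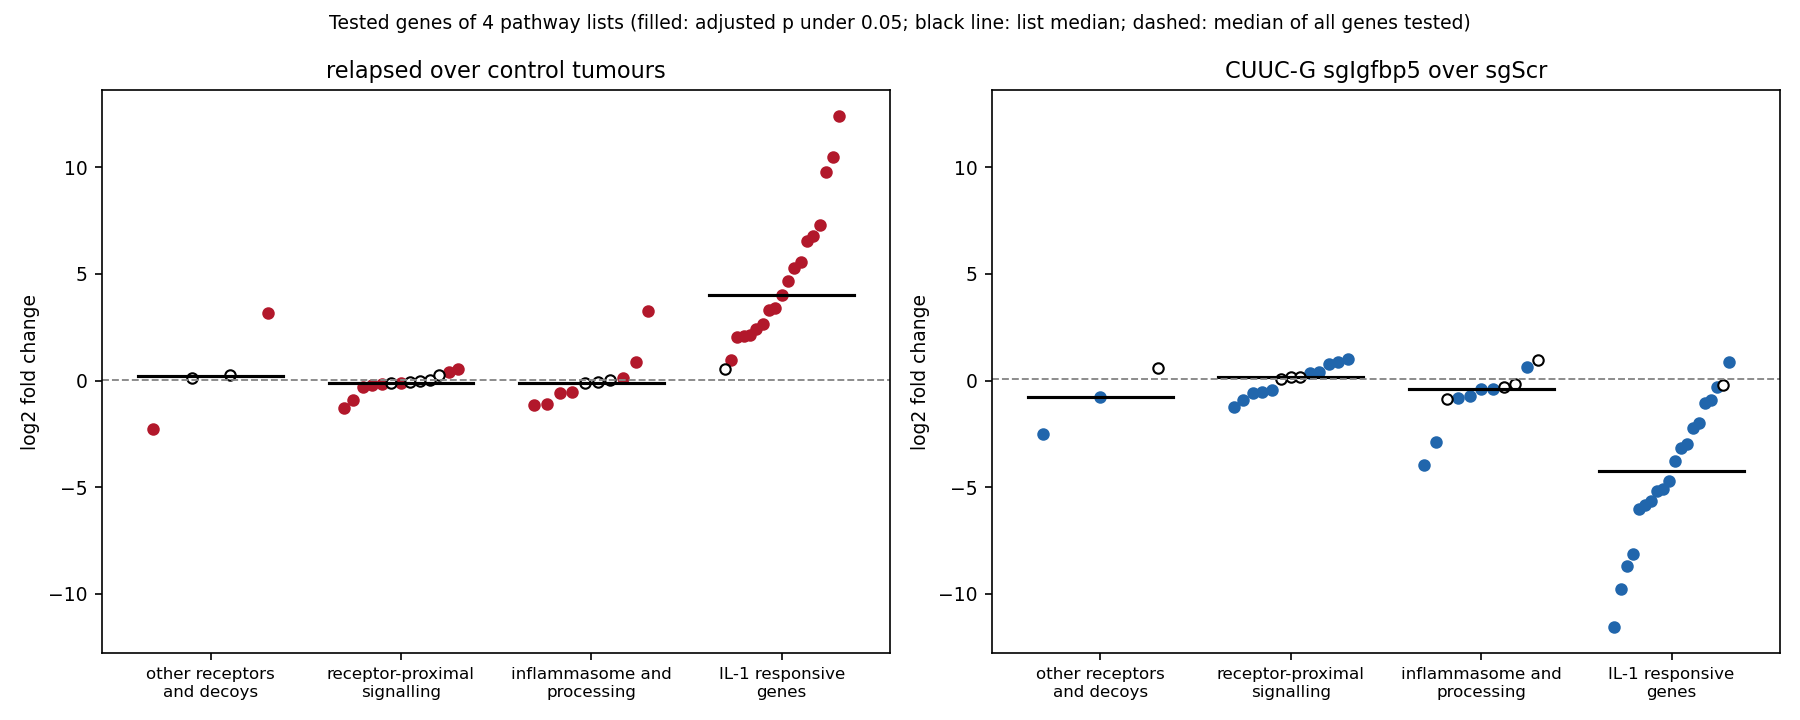
Log2 fold change of every tested gene in 4 pathway lists, relapsed over control tumours (left) and CUUC-G sgIgfbp5 over sgScr (right), sorted within a list; filled points had an edgeR adjusted p under 0.05, black lines are list medians and the dashed line is the median of all genes tested. The responsive genes have medians of 4.02 and -4.24, while the medians of the signalling genes are -0.135 and 0.148.

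Genes whose levels followed Il33 most closely over the 12 libraries were sought among 13904 genes tested in both comparisons, by the root mean square difference of centred log2 CPM. The nearest named protein-coding genes were Krt19, an epithelial keratin, at 0.283, Rnf17 at 0.330, Rps6ka6, an S6 kinase family gene, at 0.333, and Kdr, a receptor for vascular endothelial growth factor, at 0.380. Krt19 had means of 261 CPM in relapsed, 4.62 in control, 34.8 in sgIgfbp5 and 313 in sgScr libraries, beside 290, 3.07, 25.7 and 255 CPM for Il33. Kdr had 156, 1.44, 7.79 and 153 CPM in the same groups. Rnf17 had 7.47, 0.0175, 0.631 and 6.6 CPM, and Rps6ka6 had 7.45, 0, 0.374 and 6.17 CPM. In control tumours these last levels were near 0, so their closeness to Il33 there depends on the prior count of 2 added before the log. The measure also joins tumour and CUUC-G levels that were normalized separately. By this measure Il1a, at 1.22, ranked 138th from Il33 and Il1rl1, at 1.70, ranked 454th.

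Markers of other cells were read beside these results, and their part in the results was not tested. Over all genes tested, 73.5% were called at relapse, 36.6% higher and 36.9% lower. In CUUC-G these shares were 70.8%, 36.5% and 34.3%. Csf1r, Mrc1, Mmp8, Lum, Fap and Krt8 passed the filter through the relapsed group alone, and Upk1a and Tek through the control group alone. In CUUC-G, Csf1r, Mrc1, Mmp8, Fap and Thy1 passed through the sgScr group alone, and Kit, Upk1a and Foxa1 through the sgIgfbp5 group alone. The T and B cell markers summed to 0.098 to 0.299 CPM in relapsed and 0.274 to 0.368 CPM in control libraries, with Cd3e and Cd3g at 0. Of 6 mast cell markers, Cpa3, Mcpt4, Tpsb2 and Fcer1a were at 0, and the sum was 0.648 to 0.946 CPM at relapse and 0 to 0.0503 CPM in controls. Of 10 markers of group 2 innate lymphoid and regulatory T cells, which respond to IL-33, 3 were tested, 1 higher and 2 lower at relapse. Il13 and Klrg1 were at 0, and the sum was 16.2 to 17.8 CPM in relapsed and 39.5 to 45.4 CPM in control libraries. Rora, at 11.3 CPM in relapsed and 24.2 CPM in control tumours, and Gata3, at 1.69 and 15.5 CPM, carried most of this sum. Of 10 macrophage and monocyte markers, 4 were tested and all 4 were higher. The sum was 27.0 to 27.5 CPM in relapsed and 5.13 to 5.57 CPM in control libraries, mostly from Cd14 at 21.1 and 2.83 CPM. Lyz2, of the same list but not tested, had 5 counts in relapsed and 27 in control tumours, 17 of these in control replicate 2. The neutrophil markers summed to 2.99 to 3.53 CPM at relapse and 0.263 to 0.402 CPM in controls, with S100a9 and Retnlg at 0.

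Of 14 urothelial and epithelial markers, 8 were tested, and 6 were higher at relapse and 0 lower. The called share was 75.0%, beside 73.5% over all genes. The sum was 621 to 649 CPM in relapsed and 18.7 to 20.8 CPM in control libraries. Krt8 had 8583 counts in relapsed and 1 in control tumours, Krt18 5203 and 43, Krt19 15783 and 280, and Upk1b 6000 and 168. Pparg, at 462 and 410 counts, and Upk1a, at 23 and 34, were tested and not called. Krt5 and Upk3a had 0 counts in all 6 tumour libraries, and Epcam had 10 counts in relapsed and 2 in control tumours. Fibroblast markers, 4 higher and 4 lower of 8, summed to 8560 to 8720 CPM at relapse and 18800 to 19400 CPM in controls. The sum came mostly from Col1a1, at 5483 CPM at relapse and 9942 CPM in controls, and from Col1a2 and Col3a1, also lower. Thy1 was lower as well, while Pdgfra, Dcn, Lum and Fap were higher, Pdgfra by 3.27 ± 0.08 on the log2 scale (SE). Endothelial markers summed to 151 to 163 CPM in relapsed and 1.82 to 2.77 CPM in control libraries, at relapse nearly all from Kdr. Cdh5 had 7 counts at relapse and 0 in controls and Pecam1 35 and 5. Tek, the other marker tested, went the other way, with 5 counts at relapse and 45 in controls. Its log2 fold change was -3.08 ± 0.73 (SE, adjusted p = 0.000445 by edgeR). In CUUC-G the epithelial sum was 143 to 170 CPM in sgIgfbp5 and 667 to 751 CPM in sgScr cells (3 higher and 6 lower of 9 tested). The fibroblast sum was 4770 to 5390 and 9080 to 9580 CPM (1 higher and 6 lower of 7 tested). The endothelial sum was 8.88 to 9.1 CPM in sgIgfbp5 and 149 to 157 CPM in sgScr cells. Tek, not tested there, had 34 counts in sgIgfbp5 and 0 in sgScr libraries. The macrophage sum was 6.36 to 8.61 CPM in sgIgfbp5 and 26.4 to 28.2 CPM in sgScr cells, with Ptprc and Adgre1 at 0 in all 6 libraries. Markers of innate lymphoid and regulatory T cells summed to 20.9 to 25.1 CPM in sgIgfbp5 and 15.7 to 16.7 CPM in sgScr cells, where Gata3 was higher by 3.35 and Rora lower by 0.98 on the log2 scale in sgIgfbp5 cells. Neutrophil markers summed to 0.808 to 1.08 CPM in sgIgfbp5 and 3.07 to 4.38 CPM in sgScr cells. Mast cell markers summed to 0.639 to 1.03 CPM in sgIgfbp5 and 0.269 to 0.521 CPM in sgScr cells, and T and B cell markers to 0.202 to 0.423 and 0.0502 to 0.592 CPM.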

How the data were processed

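Per the labels' protocols, poly(A)-selected libraries were made from TRIzol-extracted RNA with a stranded mRNA kit; Salmon, without a version, and the builds GRCm38 and GRCh38 are named in the submitters' processing notes. Estimated counts and TPM values were deposited by transcript for the tumours (147828 transcripts, summed here to 55858 genes) and by gene for CUUC-G, as the authors' tables show. In 153 CUUC-G values the count was 0 and the TPM above 0, so its whole numbers are rounded estimates; all estimated counts were rounded. CUUC-G columns marked mI were taken as sgIgfbp5 because the labels mark the IGFBP5-targeted human libraries with hI; the table does not say so. Unmatched columns numbered 0.

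Each comparison was fitted on its own 6 libraries with edgeR 4.0.16 (R 4.3.3): TMM scaling, filterByExpr, robust quasi-likelihood F test, two-sided. P-values were adjusted by Benjamini and Hochberg's method over every gene or transcript in the fit, and calls were made under 0.05. SE was taken as |log2 fold change| over √F. CPM uses TMM-scaled totals. Where groups are said not to overlap, the share of all genes that separate in this way was not computed. Floors are 3 counts over a group; intervals and floors cover counting error only. The procedure was tested on simulated counts. Replicates of a group differed by more than sampling noise (chi-square per degree of freedom 2.644 to 17.405), so none was counted as a duplicate.

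Positions are GENCODE M21 on GRCm38, in which 51460 gene identifiers were found without their version and only 35 with the same version, so the authors used another release; all 34 transcripts of the 8 genes had the same length in M21. Promoters of all 8 genes came from RefSeq, GRCm38.p6. The 8 genes, the lists and the tests were chosen with earlier results of these data known. Genes named are the 8, up to 4 per list by p in each comparison, and the 4 nearest to Il33; Myd88, Il1r2, Il18r1, Pycard, Il36g, Ddx3y and single markers were named after their values were seen.

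Other settings were run for scaling (RLE, or library size alone), tool (DESeq2 1.42.0), filter (any gene with 1 count, or 1 CPM in 3 libraries), dispersion (without robust estimation), the replicate number as a block, and leaving out each library. TPM values were tested with limma 3.58.1 as log2(TPM + 1) for genes averaging 1 TPM, with 0.1 added instead, and for genes of any level. Summing transcripts of equal coding length was added after the data were seen. Some genes of the lists are counted in the totals but not reported here by name.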

Additional observations from a re-analysis of the deposited data

How the results depend on the processing

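The counts of IL-1 family genes called were 5 to 6 at relapse and 6 in CUUC-G under every alternative run. Of 221 single-gene values under alternatives, 207 kept their direction and their side of the threshold, 9 lost the call, 1 gained it and 4 reversed. The lost calls were all Il1rn at relapse and the gained one was Il18 at relapse without control replicate 3. The 4 reversals were Il1rn in CUUC-G, a value near 0: 0.0006 without sgIgfbp5 replicate 2, 0.0457 without sgIgfbp5 replicate 3, 0.0586 without sgScr replicate 1 and 0.003 with limma on log2(TPM + 1) without a filter. Over all its leave-one-out fits this value ran between -0.60 and 0.06. On log2(TPM + 1), which compresses low genes, the log2 fold changes at relapse were 5.90 for Il33, 5.32 for Il1rl1 and 3.17 for Il1a, and in CUUC-G -5.35 for Il1rl1 and -2.99 for Il1a; all were called. Leaving out each library gave log2 fold changes of 6.50 to 6.61 for Il33 and 6.87 to 7.09 for Il1rl1 at relapse, and of -3.36 to -3.31 and -7.94 to -7.05 in CUUC-G.

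Pathway genes higher in sgIgfbp5 cells numbered 7, and 11 with library size only, a scaling that moved the median log2 fold change of all genes to 0.17. With each library left out, pathway calls were 24 to 26 higher and 10 to 13 lower at relapse, and 6 to 7 higher and 31 to 32 lower in CUUC-G, and transcript calls were 6 to 8, against 9 with all libraries. Summing transcripts of equal coding length gave 8.

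Deviations from the group mean correlated between same-numbered libraries by 0.047 to 0.077 in the tumours and by -0.377 to 0.162 in CUUC-G. These values give no sign that the numbers pair the samples, though 3 libraries a group cannot exclude it. With the replicate number as a block, 5 transcripts were called, and the value for Il1rn-201, 0.45 without the block, was -0.12; with each library left out it ran between -0.0872 and 1.04, the lowest without relapsed replicate 1. Depth limits Il1b, Il1rn and the transcripts of control tumours, where Il33 had 186 counts and Il1rl1 56.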

Other observations

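Il1rn counts in the tumours were split differently from library to library. In relapsed replicate 3 all 33 counts were assigned to a transcript starting at base 24336853 of chromosome 2. In relapsed replicates 1 and 2, 25 and 21 counts were assigned to a transcript starting at base 24345310, as were 12.2, 8 and 14 in the control libraries.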
